A study of Mus musculus with 2 samples.

Results

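The genes described here make and assemble ribosomes in the nucleolus, together with Myc, its partner Max and Mxd4, a competitor of Myc for Max. They are 45 rows of the deposited tables, picked by gene symbol from a list of nucleolar, RNA polymerase I and rRNA processing genes. The tables hold 23282 rows, of which 12164 had at least 10 reads in at least 1 library and are called tested below; all 45 members were among them. The question was how the level of each member differed between control and Tubastatin A-treated cells.

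Naïve CD4+ T cells were isolated from the spleens of wild-type female C57BL/6 mice used at 7 to 10 weeks of age. Both cultures were activated with anti-CD3ε and anti-CD28 antibodies and kept for 1 day under Treg-inducing conditions, that is with TGF-β1 (5 ng/ml), IL-2 (1 ng/ml) and antibodies that block IFN-γ and IL-4. The control culture received DMSO, and the other received 10 μM Tubastatin A, an inhibitor of the deacetylase HDAC6, dissolved in DMSO. Tubastatin A is abbreviated TSA here as in the study, and is not the pan-HDAC inhibitor trichostatin A. Each condition gave 1 library, so no value below has a replicate check and no p-value was computed. The sources do not say how many mice were pooled, and an effect of TSA cannot be told apart from other differences between the 2 cultures.

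Reads on genes came to 10846023 for the control and 10432378 for TSA, and paired values below give the control first. A change is the TSA value minus the control value on the deposited scale, log2(normalized count + 1), and is written as a log2 change. Beside it stands the exact 95% Clopper-Pearson interval of the ratio of reads, on the log2 scale, which covers counting error only and compares these 2 libraries. Of the 10 CD4 T cell markers measured, all had reads, 23763 in all for the control and 26209 for TSA. Marker sums of other cell types were small: the 8 B cell markers made up 1.57 and 2.88 CPM, reads scaled to a common library total (1 marker without a read in both), the 14 myeloid and dendritic cell markers 31.1 and 41.4 (1 without a read), the 10 CD8 T and NK cell markers 96.8 and 116.6 (2 without a read), and the 8 erythroid and platelet markers 6.36 and 8.91 (2 without a read). In the first 3 of these lists, the markers at 0 in both libraries were Pax5, S100a9, Klrb1c and Prf1. These 4 sums were all higher in the TSA library, but rested on few genes, and single markers went both ways. Nkg7 gave 889 and 1043 of the CD8 T and NK cell reads, whereas Klrd1 gave 47 and 40. Of the myeloid reads, H2-Ab1 gave 42 and 157 and Flt3 0 and 33, whereas Cd74 gave 113 and 85, Fcer1g 62 and 50 and Cd68 32 and 19. Of the B cell reads, Ebf1 gave 1 and 12, Ms4a1 0 and 5 and Cd79a 1 and 5, whereas Cd79b gave 11 and 4. Of the erythroid and platelet reads, Hbb-bs gave 4 and 17 and Alas2 10 and 9. The part of such other cells in the results was not tested. The 9 markers of activated iTregs summed to 27757 and 24594 reads. Among them Mki67, a proliferation marker, had 1861 and 653 reads and Foxp3, the Treg lineage factor, 1633 and 965, the lowest changes of the list, while Tnfrsf18, a receptor also called GITR, had the highest, with 3228 and 3912 reads.

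Ribosomes are built in the nucleolus. RNA polymerase I transcribes a long rRNA precursor, which small nucleolar RNPs (snoRNPs) modify and which the processome and many assembly factors cut, fold and bind to ribosomal proteins, until the small and large subunits leave for the cytoplasm. Myc, which binds E-box DNA as a dimer with Max, is known to drive many of these genes, and T cell activation raises Myc and enlarges the nucleolus before the cells divide. Mxd4 belongs to the Mxd proteins, which compete with Myc for Max and repress.

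Most of the members were lower in the TSA library, each by a modest amount. The change was below 0 for 43 of the 45 members, and its median was -0.37, against 0.015 over all tested genes and -0.058 over the 8188 tested genes whose normalized counts averaged 100 or more, called well-expressed below. The 95% interval lay wholly below no change for 36 members and wholly above it for 2, Max and Nop10. For all tested genes these shares were 28% below and 28.1% above, and for well-expressed genes they were 36.5% and 23.4%. No member passed the 2-fold threshold that the study used, in either direction, where 3.15% of all tested genes were lower and 11.5% higher by more than 2-fold. Of the 8188 well-expressed genes, only 107 were lower and 121 higher by more than 2-fold. That no member passed is thus near the share of genes of such levels. By more than 1.5-fold, 6 members were lower (Dkc1, Ncl, Nop14, Nolc1, Nop58 and Utp18), against 8.34% of all tested genes and 5.9% of well-expressed genes. With total-read scaling Nop58 (-0.57) and Utp18 (-0.54) fell short of 1.5-fold, as did Utp18 with upper-quartile scaling (-0.57). The members were thus mostly lower, by small amounts. In these bulk cultures, fewer cells of a kind and less RNA per cell cannot be told apart, and since values are relative to each library, RNA per cell was not measured.

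An interval is narrower where a gene has more reads, so the members were also set beside genes of similar level. Between 500 and 1000 normalized counts, 12 of 13 members had an interval below no change, against 40.7% of 1791 tested genes. Between 1000 and 5000, the count was 17 of 23, against 54.4% of 1891 genes. At 5000 or more it was 6 of 6, against 57.9% of 280 genes. The medians in these 3 ranges were -0.39, -0.26 and -0.57 for the members and -0.081, -0.12 and -0.091 for all genes. Few members lay lower: the count was 1 of 2 between 100 and 500, against 25.3% of 4226 genes, and 0 of 1 below 100, against 10.5% of 3976. Within the members, Spearman's rho between the control level and the change was -0.034 (45 genes, which share the same 2 libraries), whereas over the well-expressed genes rho was -0.29 (n = 7725 with an annotated transcript).

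**Figure D1:**
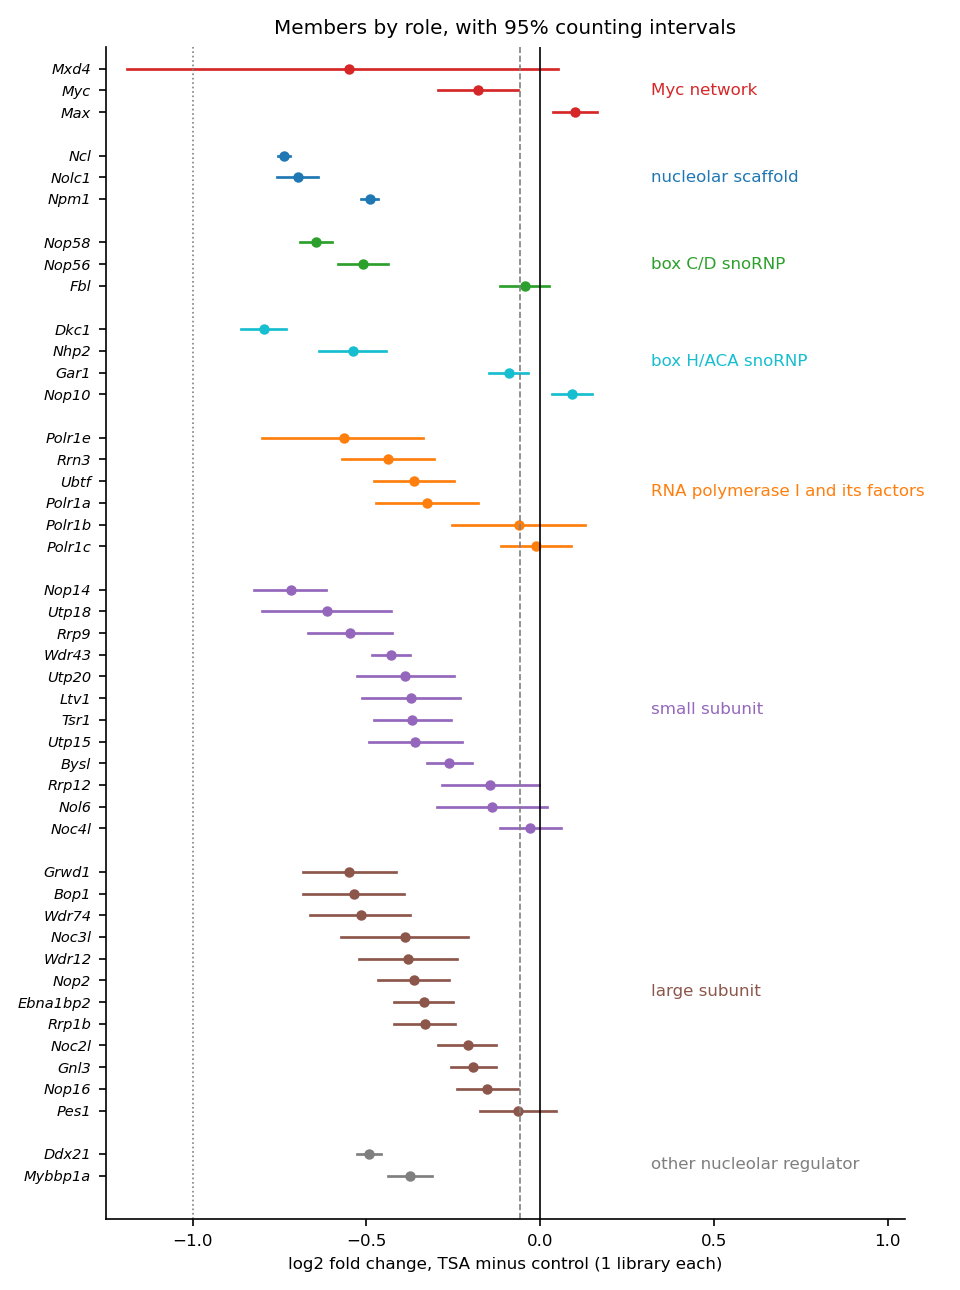
Log2 fold change (TSA minus control, 1 library each) of the 45 members, in rows by role, with points for the deposited change and bars for the 95% counting interval. The dashed line is the median of well-expressed genes (-0.058) and the dotted line is 2-fold lower; 43 points lie left of 0 and none lies left of the dotted line.

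Myc itself had a change nearer 0 than the median of the members. Its deposited values were 10.37 and 10.19 (1312 and 1170 reads), a log2 change of -0.18 (95% interval -0.29 to -0.065). With the libraries scaled by total reads, its interval included no change. Max, the obligate partner of Myc, had 3858 and 4175 reads, a log2 change of 0.10 (0.036 to 0.16). The difference between the changes of Myc and Max does not depend on how the libraries are scaled, and it was -0.28 (95% interval by Woolf's method on the 4 read counts, -0.41 to -0.15). In all, 19 such pairs were compared, with no adjustment. Mxd4 rested on few reads, 57 and 39, and its log2 change of -0.55 had an interval that included no change (-1.19 to 0.051). So Max, which Myc shares with its antagonists, was slightly higher, Myc slightly lower, and a change in Mxd4 itself was not detectable at this depth. In GRCm38, to which the mm10 build named for these data corresponds, GENCODE M21 places the protein-coding gene Myc on chromosome 15 from 61985391 to 61990374 and Max on chromosome 12 from 76937269 to 76962201.

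Of 11 tested genes of a list of further partners and antagonists, 3 had an interval below no change and 4 above, with a median of 0.071. The balance moved with the scaling, from 1 to 3 below and from 4 to 6 above, with medians from 0.069 to 0.16. Mga, which represses through Max, had the lowest change among the well-expressed ones of this list, -0.38 (1920 and 1488 reads), and Mxi1, another Max-binding antagonist of Myc, the highest, 0.696 (128 and 210 reads). Mnt, a Max-binding repressor, had a change of -0.28, and Usp28, a deubiquitinase that stabilises Myc, one of 0.47.

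The E-box CACGTG, the DNA element that Myc and Max bind, was searched for in the RefSeq promoters (GRCm38.p6, 250 bases before to 50 after the start of transcription, counted over both strands since the motif is its own reverse complement). A promoter was matched for 39 of the 45 members; Myc, Npm1, Fbl, Nol6, Bop1 and Rrp12 had no entry. Of the 39 genes, 12 held the motif in at least 1 promoter, which is 30.8%. The share was 8.09% of all 27025 genes of the RefSeq promoter set and 12.6% of the 6304 well-expressed genes with an entry. The matches of 6 members follow, chosen to show Max and its Mxd partner, an RNA polymerase I factor with 2 matches, and assembly factors with a change well below 0 (Utp18, Grwd1) and near 0 (Pes1); E-box bases are in capitals and each window runs 5′ to 3′ on the strand of the gene.
Max, chr12:76962226-76962271, minus strand: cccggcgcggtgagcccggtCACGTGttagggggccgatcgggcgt
Mxd4, chr5:34187904-34187949, minus strand: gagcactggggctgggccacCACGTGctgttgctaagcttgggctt
Rrn3, chr16:13780464-13780509, plus strand: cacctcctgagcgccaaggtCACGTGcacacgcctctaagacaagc
Rrn3, chr16:13780631-13780676, plus strand: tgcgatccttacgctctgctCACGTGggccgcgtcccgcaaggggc
Utp18, chr11:93885761-93885806, minus strand: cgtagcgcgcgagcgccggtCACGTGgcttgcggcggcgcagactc
Grwd1, chr7:45830740-45830775, minus strand: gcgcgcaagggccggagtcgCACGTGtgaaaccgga
Pes1, chr11:3963957-3964002, plus strand: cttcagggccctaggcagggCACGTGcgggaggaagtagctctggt

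The other members with the motif were Nop2, Wdr43, Utp20, Mybbp1a, Tsr1 and Ltv1. The 12 members with an E-box ranged from -0.61 (Utp18) to 0.10 (Max), with a median of -0.38 and 9 intervals below no change. The 27 matched members without one had a median of -0.36 and 23 intervals below no change. In related lists the motif was found for 33.3% of the Myc target enzymes, 23.5% of further small subunit genes, 17.9% of further large subunit genes, 14.3% of further RNA polymerase I genes and 10.3% of cytosolic ribosomal protein genes with an entry. A share near that of the members was thus found only in the Myc target enzymes, a list chosen as textbook Myc targets, and the other lists had lower shares. The members with and without the motif had similar medians. Over well-expressed genes the medians were -0.066 with the motif and -0.056 without it. Intervals below no change numbered 284 of 792 with it and 2010 of 5513 without it.

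The 3 nucleolar scaffold genes, among them the 2 members with the most reads, were all lower. Ncl encodes nucleolin, an abundant RNA-binding protein and histone chaperone of the nucleolus. Its deposited values were 16.07 and 15.34 (68642 and 41562 reads), a log2 change of -0.74 (-0.76 to -0.72), or a fold of 0.5996. Nolc1, also called Nopp140, which shuttles between nucleolus and cytoplasm and binds snoRNPs, had values of 12.62 and 11.92 (6246 and 3888 reads), a log2 change of -0.70 (-0.76 to -0.64). Npm1 encodes nucleophosmin, which forms the outer granular layer of the nucleolus, and had values of 14.89 and 14.40 (30274 and 21754 reads), a log2 change of -0.49 (-0.52 to -0.47). The change of Ncl differed from that of Npm1 by -0.25 (-0.28 to -0.22). Ncl lies on chromosome 1 from 86344719 to 86359400, Nolc1 on chromosome 19 from 46075863 to 46085530 and Npm1 on chromosome 11 from 33152287 to 33163206.

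Because Ncl alone gave 31.9% of the members' reads in the control library, the summed level of the group leans on it. The 45 members took 1.99% of all reads on genes in the control library (exact 95% interval 1.98 to 1.99) and 1.49% in the TSA library (1.48 to 1.49). The ratio of these shares, TSA over control, was 0.749. Without Ncl it was 0.805, and without Ncl and Npm1 it was 0.820.

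**Figure D2:**
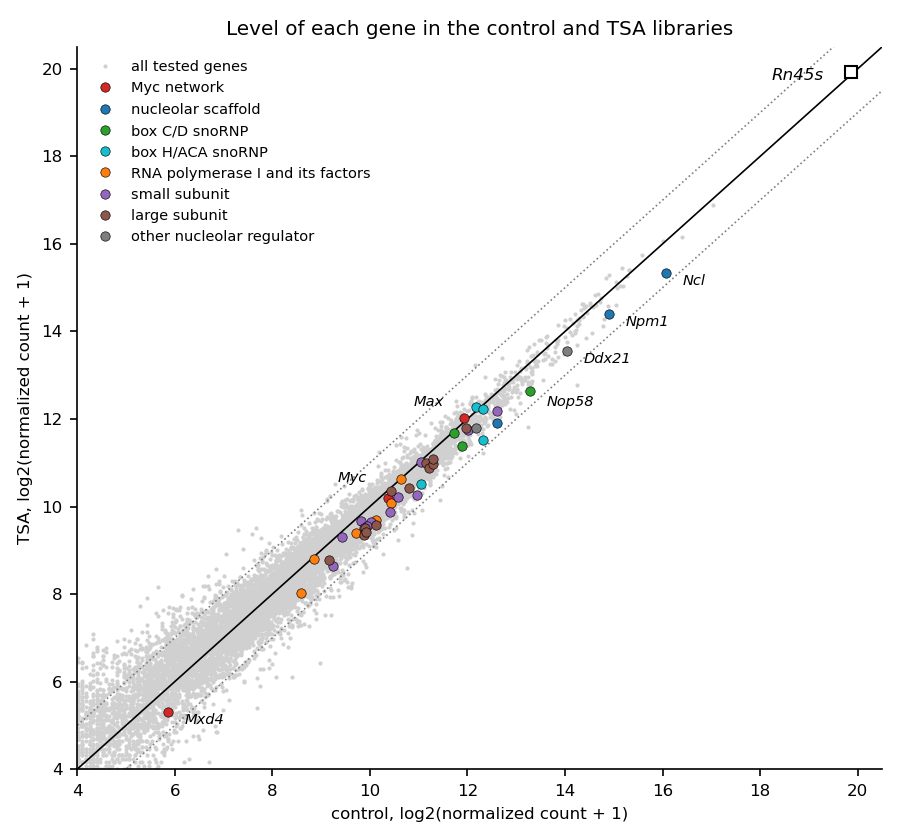
Deposited level, log2(normalized count + 1), for the control (x axis) and for TSA (y axis) for all tested genes at 4 or more on both axes (grey) and the members (coloured by role), with lines for equal level (solid) and 2-fold differences (dotted). Ncl, Npm1, Ddx21 and Nop58 lie below the line of equal level, and Rn45s, the rRNA precursor (open square), lies at 19.86 and 19.93.

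Of the 7 snoRNP genes, 5 had an interval below no change, 1 above it (Nop10) and 1 including it (Fbl), and genes of the same particle differed from each other. Box C/D particles methylate rRNA, with fibrillarin (Fbl) as the methyltransferase and Nop56 and Nop58 as the core proteins that hold it. Nop58 had 9924 and 6409 reads, a log2 change of -0.65 (-0.69 to -0.60). Nop56 had 3778 and 2677 reads, a log2 change of -0.51 (-0.58 to -0.44). Fbl had 3346 and 3276 reads, and its change of -0.045 had an interval that included no change (-0.11 to 0.025). The change of Nop58 differed from that of Fbl by -0.60 (-0.68 to -0.52) and that of Nop56 by -0.47 (-0.57 to -0.37). The transcripts of both core proteins were therefore lower relative to that of the enzyme, whatever the scaling. Nop56 and Fbl share transcript ends with processed pseudogenes, which the authors' counting could split: 77.2% of the 75-mers in the last 500 nt of Nop56 and 73.2% of those of Fbl occur in such a transcript.

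Box H/ACA particles turn uridine into pseudouridine, with dyskerin (Dkc1) as the enzyme and Nhp2, Nop10 and Gar1 as its partners. Dkc1 had the lowest change of all 45 members. Its deposited values were 12.33 and 11.53 (5104 and 2969 reads), a log2 change of -0.80 (-0.86 to -0.73), or a fold of 0.576. Nhp2 had 2119 and 1471 reads, a log2 change of -0.54 (-0.64 to -0.44). Gar1 had 5083 and 4820 reads, a log2 change of -0.091 (-0.15 to -0.034), and its interval included no change with total-read or upper-quartile scaling. Nop10 had 4613 and 4966 reads and was, after Max, the other member above no change, at 0.092 (0.034 to 0.15). Dkc1 differed from Nop10 by -0.89 (-0.98 to -0.80), from Gar1 by -0.71 (-0.79 to -0.62) and from Nhp2 by -0.26 (-0.37 to -0.14). The change of the enzyme's transcript was thus the lowest of the 4 and that of Nop10 the highest. Dkc1 lies on chromosome X from 75095854 to 75109777, and Nop10 on chromosome 2 from 112261926 to 112263269. The end of Dkc1 overlaps Mpp1 on the other strand, and Mpp1, named here after its values were seen, had 796 and 487 reads, a log2 change of -0.72. The strand setting of the counting is not given, so reads of the pair may be mixed, and the part of Mpp1 in the value of Dkc1 was not tested.

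Several members carry snoRNA genes inside their own genes. In GENCODE M21, 7 of the 45 members held at least 1 annotated snoRNA gene on their strand: Ncl, Nop56, Nop58, Dkc1, Wdr43, Gnl3 and Tsr1. That is 15.6%, against 2.02% of 7727 well-expressed protein-coding genes. The median change of the 7 was -0.51, and that of the other 38 members was -0.36. Over the 156 well-expressed host genes the median was -0.12, against -0.057 for the genes without a snoRNA.

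RNA polymerase I genes were lower in part. Polr1a encodes the catalytic large subunit and had 840 and 677 reads, a log2 change of -0.33 (-0.47 to -0.18). Polr1e, part of a subcomplex particular to this polymerase, had 383 and 261 reads and a log2 change of -0.57 (-0.80 to -0.34). Polr1b, the other large subunit, had 460 and 445 reads, and Polr1c, a subunit shared with RNA polymerase III, had 1588 and 1591. Their changes of -0.062 (-0.25 to 0.13) and -0.011 (-0.11 to 0.090) had intervals that included no change, and both turned positive with total-read scaling. The change of Polr1a differed from that of Polr1c by -0.31 (-0.49 to -0.14), and that of Polr1e by -0.56 (-0.80 to -0.31). Ubtf, which binds rDNA and keeps it open, had 1379 and 1083 reads, a log2 change of -0.36 (-0.48 to -0.25). Rrn3, the growth-regulated initiation factor, had 1108 and 826 reads, a log2 change of -0.44 (-0.57 to -0.31). Both transcription factors of the group were thus lower, along with 2 of the 4 subunits. At the levels of these genes, an interval below no change was found for 25.3% (100 to 500 normalized counts), 40.7% (500 to 1000) and 54.4% (1000 to 5000) of tested genes. The count of 2 of 4 subunits lies within this range.

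The further RNA polymerase I genes, a list of 16, had 6 intervals below no change and 1 above, with a median of -0.11. The share below was close to the 36.5% of well-expressed genes, and with the scalings tried 1 to 3 were above and the median ran from -0.11 to -0.026. Taf1c, a subunit of the promoter selectivity factor, had the lowest change among the well-expressed ones, -0.55 (186 and 128 reads), followed by Cd3eap, a polymerase subunit, at -0.43. The highest were the termination factor Ttf1 at 0.14 and the subunit Znrd1 at 0.12, with intervals that included no change. The row for the rRNA precursor, Rn45s, had 946230 and 1004487 reads, which is 8.72% and 9.63% of each library, a log2 change of 0.072 (0.068 to 0.076). Precursor rRNA is not a usual target of a poly(A)-primed library, and what these reads measure was not tested.

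Of the 12 small subunit members, all had a change below 0 (Noc4l above 0 with total-read and upper-quartile scaling) and 10 an interval below no change, with a median of -0.37. Nop14, which binds the nascent small subunit, had 1996 and 1225 reads, a log2 change of -0.72 (-0.82 to -0.62). Its partner Noc4l had 2110 and 2089 reads and a change of -0.029 (-0.12 to 0.059), so that the pair differed by -0.69 (-0.82 to -0.56). The UTP proteins of the processome, which assembles on the precursor as it is transcribed, were each lower. Utp18 had a log2 change of -0.61 (602 and 397 reads), Utp20 one of -0.39 (977 and 754 reads) and Utp15 one of -0.36 (1029 and 810 reads). Rrp9, which binds the U3 snoRNA that guides these cuts, had 1362 and 942 reads and a log2 change of -0.55 (-0.67 to -0.43). Wdr43, another processome protein, had 6198 and 4649 reads and a log2 change of -0.43 (-0.48 to -0.37).

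The factors that act later on the small subunit were also lower. Tsr1, a GTPase-like factor of the late cytoplasmic precursor, had a log2 change of -0.37 (1524 and 1193 reads). Ltv1, which must leave before the subunit matures, had one of -0.37 (930 and 726 reads). Bysl, or bystin, had 4123 and 3475 reads and a change of -0.26 (-0.33 to -0.20). Rrp12, an export factor, had 891 and 815 reads, and its interval of -0.28 to -0.0041 reached close to no change and included it with total-read and upper-quartile scaling. Nol6, a processome protein, had 687 and 630 reads and a change of -0.14 whose interval included no change (-0.30 to 0.019). The order within the small subunit group ran from Nop14 to Noc4l, and the intervals of Utp20, Ltv1, Tsr1 and Utp15, neighbours in that order, overlapped almost wholly.

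Of the 12 large subunit members, all again had a change below 0 (Pes1 above 0 with total-read scaling) and 11 an interval below no change, with a median of -0.35. Pes1, Bop1 and Wdr12 form the PeBoW complex, which is needed to process the large subunit rRNA. Bop1 had 934 and 650 reads, a log2 change of -0.54 (-0.68 to -0.39), and Wdr12 had 949 and 736 reads, a log2 change of -0.38 (-0.52 to -0.24). Pes1 had 1371 and 1324 reads, and its change of -0.064 had an interval that included no change (-0.17 to 0.045). Bop1 differed from Pes1 by -0.47 (-0.65 to -0.29) and Wdr12 from Pes1 by -0.32 (-0.49 to -0.14), while Bop1 and Wdr12 did not differ by more than counting error (-0.16, interval -0.36 to 0.044). Within PeBoW, then, 2 of the 3 genes were lower relative to the other. The end of Bop1 overlaps another gene on the other strand, and 29.6% of the 75-mers in the last 500 nt of Wdr12 occur in another gene's transcript. Pes1 had neither, and the part of these overlaps in the differences was not tested.

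The remaining large subunit members were lower by a range of amounts. Grwd1, a chaperone of a ribosomal protein, had 1107 and 764 reads, a log2 change of -0.55 (-0.68 to -0.41). Wdr74, a WD-repeat protein of early large subunit particles, had a change of -0.52 (970 and 684 reads). Noc3l, which goes with the precursor from nucleolus to nucleoplasm, had one of -0.39 (572 and 441 reads). Noc2l, the nucleolar partner of Noc3l, had 2506 and 2189 reads and a change of -0.21, and the 2 genes did not differ by more than counting error (-0.18, interval -0.38 to 0.017). Nop2, which methylates a cytosine of the large subunit rRNA, had a change of -0.36 (1767 and 1387 reads), Ebna1bp2, the counterpart of yeast Ebp2, one of -0.34 (2511 and 2010 reads) and Rrp1b, a nucleolar protein of the large subunit pathway, one of -0.33 (2353 and 1887 reads). Gnl3, nucleostemin, a GTP-binding protein of proliferating cells, had 4007 and 3543 reads and a change of -0.19 (-0.26 to -0.13). Nop16, known as a Myc-induced gene, had 2249 and 2044 reads and a change of -0.15 (-0.24 to -0.065), and its interval included no change with total-read scaling. The lowest of the 12 were thus Grwd1, Bop1 and Wdr74, whose intervals overlapped.

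Both regulators that act on transcription as well as processing were lower. Ddx21, an RNA helicase that couples RNA polymerase I transcription with rRNA modification, had values of 14.05 and 13.56 (16877 and 12118 reads), a log2 change of -0.49 (-0.53 to -0.46). Mybbp1a, a nucleolar repressor of rDNA transcription, had 4600 and 3585 reads, a log2 change of -0.37 (-0.44 to -0.31).

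**Figure D3:**
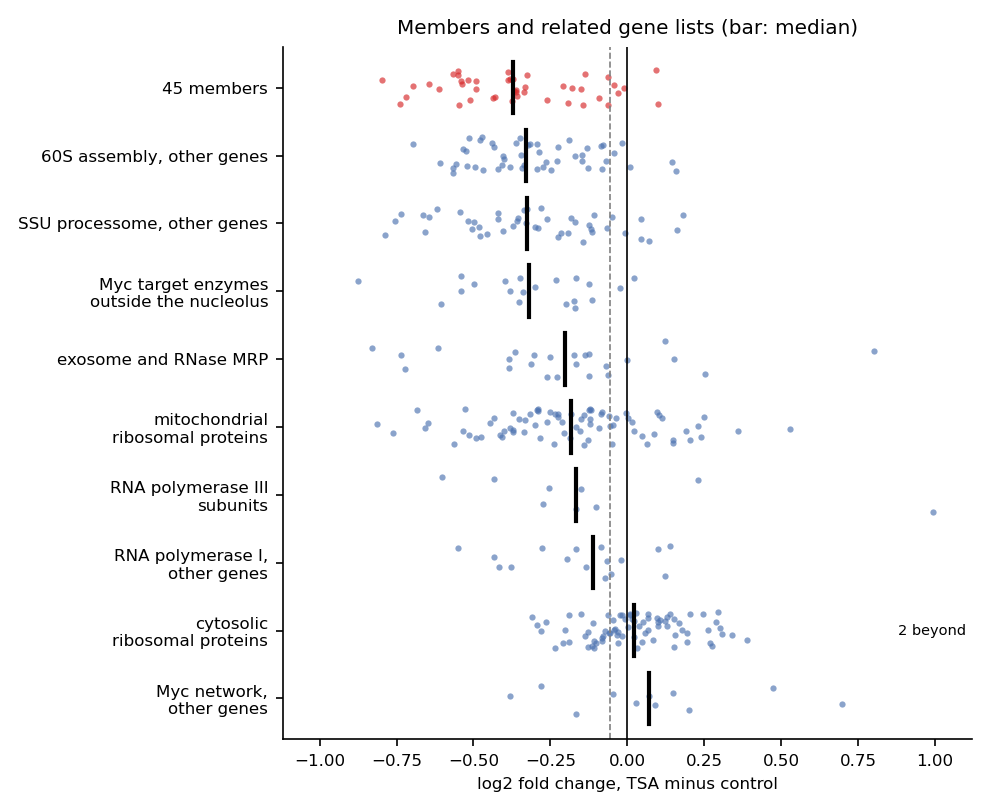
Log2 fold change (TSA minus control) of each tested gene in the members (red) and in 9 related gene lists (blue), with a black bar at each list's median and the dashed line at the median of well-expressed genes (-0.058). Medians run from -0.37 for the members to 0.071 for the other Myc network genes, and 2 cytosolic ribosomal protein genes lie beyond the axis.

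Assembly factors outside the 45 members had medians close to theirs, whereas the ribosomal proteins had a median near 0. Of 50 further large subunit assembly genes, 40 had an interval below no change and none above, with a median of -0.33. Wdr55 had the lowest change among the well-expressed ones, -0.70 (619 and 385 reads), followed by Cebpz at -0.61 (2506 and 1658 reads). The highest were Tex10 at 0.16 and Senp3 at 0.15, whose proteins belong to the same rRNA-processing complex and whose intervals included no change. Of 45 further small subunit processing genes, 32 had an interval below no change and 1 above, with a median of -0.33. Wdr46 and Tbl3 were lowest, at -0.79 (455 and 266 reads) and -0.76 (718 and 429 reads), and Imp3, a U3 snoRNP protein, was highest at 0.18 (2897 and 3319 reads), ahead of Tsr3 at 0.16. Over the scalings tried the 2 medians ranged from -0.33 to -0.25 for the large subunit genes and from -0.33 to -0.24 for the small subunit genes.

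The 79 tested cytosolic ribosomal protein genes, the products that these factors assemble, had a median of 0.020. Among them 28 had an interval below no change and 36 above, and with other scalings the counts ranged from 10 to 28 below and from 35 to 52 above. Rpl4 was lowest, at -0.31, and Rps14 and Rps18 highest, at 0.39 and 0.34, among the well-expressed ones. The median of the members lay below that of the ribosomal protein genes under each scaling, since a scaling moves both alike.

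**Figure D4:**
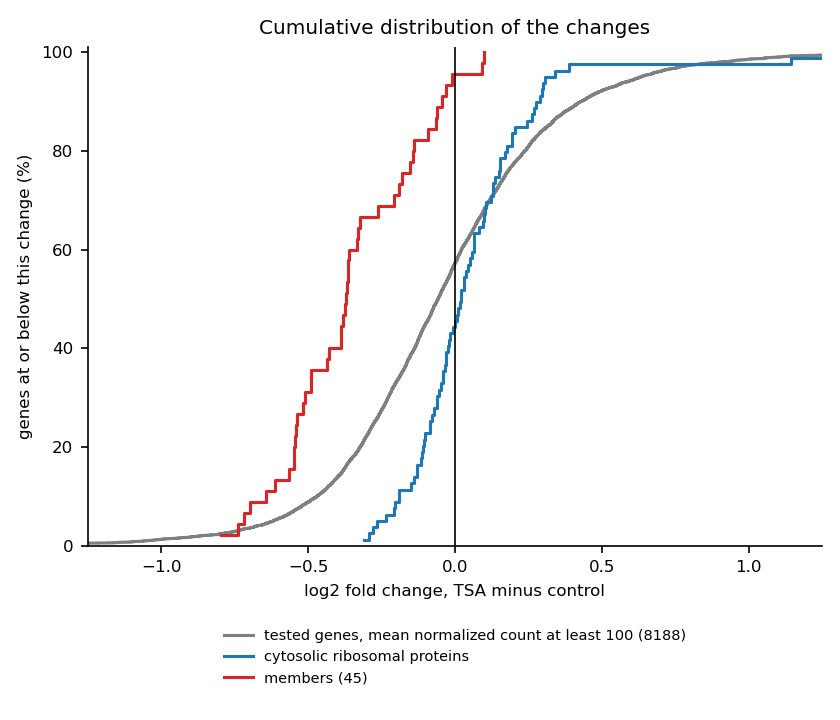
Cumulative share of genes (y axis, percent) at or below each log2 fold change (x axis) for the 45 members (red), the tested cytosolic ribosomal protein genes (blue) and the 8188 well-expressed genes (grey). The members' curve lies to the left, with a median of -0.37 against 0.020 and -0.058, and ends at 0.10.

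Myc is also known to drive enzymes of polyamine, nucleotide and one-carbon synthesis, which lie outside the nucleolus. Of 20 such genes, 17 had an interval below no change and none above, with a median of -0.32. Tyms, thymidylate synthase, which is also raised in S phase, had the lowest change, -0.87 (1086 and 598 reads), followed by Shmt1, a one-carbon enzyme, at -0.61 (1296 and 860 reads). Amd1, of polyamine synthesis, and Ctps, which makes CTP, were highest, at 0.022 and -0.025, with intervals that included no change. An E-box was found in the promoters of 6 of the 18 genes with an entry, which is 33.3%.

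The members lie on 18 chromosomes, with at most 7 on one of them (chromosome 11). Spearman's rho of the change with the length of the longest annotated transcript was -0.19 across the 45 members, and with the GC content of its last 500 nt it was 0.053. The 13 members with transcripts under 2000 nt had a median of -0.19 and 9 intervals below no change, the 20 members from 2000 to under 4000 nt a median of -0.38 and 16 intervals, and the 12 members of 4000 nt or more a median of -0.37 and 11 intervals. The short members were thus nearer no change, where well-expressed genes had medians of -0.058, -0.074 and -0.036 in these ranges. Of those genes, 37.7%, 37.9% and 34.2% had an interval below no change. For 4 members (Fbl, Nop56, Wdr12 and Polr1b) a 75-mer of the transcript end also occurs in another gene's transcript. For 10 members another gene on the other strand overlaps the last 500 bases: Mxd4, Nop56, Nhp2, Dkc1, Bop1, Polr1e, Noc2l, Mybbp1a, Tsr1 and Bysl. Without these members, 26 of 32 had an interval below no change and 2 above, with a median of -0.36.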

How the data were processed

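The authors prepared QuantSeq libraries, which read the transcript end beside the poly(A) tail, and sequenced them as single-end 75-nt reads. The submitters' processing notes name Bowtie2, bedtools and mm10, and the paper names ExDEGA; versions, annotation, strand setting and normalization are not given in the sources used here. The deposited values are log2 of a normalized count plus 1. Low values fell on steps of 1.005 (control) and 0.995 (TSA) normalized counts per read, and 99.9% of the values worth 1 to 300 reads, in both libraries, were no more than 0.1 from a whole read. Reads were recovered from these steps.

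Changes are deposited differences. Clopper-Pearson intervals and floors (3 reads, 0.277 and 0.288 CPM) cover counting error only, because each condition had 1 library. PCR copies were not marked, so reads may not be independent, and these intervals and those by Woolf's method may be too narrow. The members and lists were chosen with earlier results of these data known, and roles were assigned after the values were seen. All members may be named; in other lists the 2 lowest and 2 highest genes averaging 100 normalized counts or more, plus Rn45s, Foxp3 and Mki67. Some items that the rule allows are not reported here. Single cell type markers with reads, and Mpp1, were named after their values were seen. Symbols were matched exactly as the tables spell them. Alternatives were 5 other scalings, pseudocounts of 0.1 and 5, other filters, a 1.5-fold threshold and 99% intervals. Further lists were the exosome, mitochondrial ribosomal proteins and RNA polymerase III. Steps were tested on simulated data. The tools were pandas 2.3.3, scipy 1.17.1, numpy 2.4.6 and matplotlib 3.10.9 under Python 3.11.15, with GENCODE M21 and RefSeq promoters.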

Additional observations from a re-analysis of the deposited data

How the results depend on the processing

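No paired analysis was possible because each condition had 1 library, and no replicate could be left out. Of the 45 members, none passed 2-fold under any scaling, pseudocount or filter tried, and 6 were lower at 1.5-fold on the deposited scale, of which Nop58 and Utp18 fell short with total reads and Utp18 with the upper quartile. The count of intervals below no change was 36 as deposited, with median-of-ratios scaling and with the trimmed mean of M-values, 34 with upper-quartile scaling, 32 with total reads (with or without Rn45s) and 35 with 99% intervals, and Max and Nop10 stayed above in each. The median ranged from -0.37 to -0.29. With total reads the intervals of Myc, Nop16, Gar1 and Rrp12 included no change. The ratio of summed shares, 0.749, was 0.805 without Ncl and 0.757 with Rn45s left out of the totals. No change whose interval excluded 0 reversed; Fbl, Pes1, Polr1b, Polr1c and Noc4l, whose intervals included it, turned positive with total reads. The alternative without members with shared or overlapping ends was chosen after seeing the data. Depth was lowest for Mxd4, with 57 and 39 reads, and its interval was the widest of the members.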

Other observations

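Lists from other parts of RNA and ribosome metabolism had medians nearer 0 than that of the 45 members (-0.37). The counts of these lists stand beside a high share over all genes. An interval lay below no change for 36.5% of genes averaging 100 normalized counts or more. That share was 40.7% between 500 and 1000 normalized counts and 54.4% between 1000 and 5000. Of 24 exosome and RNase MRP genes, which trim and cut rRNA precursors, 16 had an interval below no change and 2 above, with a median log2 change of -0.20. Rpp38 and Pop1, both subunits of RNase P and RNase MRP, had the lowest changes among genes averaging 100 normalized counts or more, at -0.83 (478 and 271 reads) and -0.74 (1171 and 710 reads), whereas Pop5 and Rpp40 of the same enzymes had changes of 0.15 and 0.25, the latter with an interval that included no change (-0.033 to 0.54). Of 77 mitochondrial ribosomal protein genes, 46 had an interval below no change and 10 above, with a median of -0.18. Mrps7 and Mrps15 were lowest, at -0.81 and -0.76, and Mrpl24 and Mrpl14 highest, at 0.53 and 0.36.

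RNA polymerase III makes tRNA and the smallest rRNA. Of 9 tested genes for its subunits, 5 had an interval below no change and 2 above, with a median of -0.17. The subunit Polr3g, which is high in dividing and stem cells, had 400 and 474 reads, a log2 change of 0.23, and its paralog Polr3gl had 81 and 164 reads, one of 0.994. Polr3d and Polr3f were lowest, at -0.60 and -0.43. With the scalings tried, the median ranged from -0.17 to -0.084 for RNA polymerase III, from -0.20 to -0.12 for the exosome list and from -0.19 to -0.099 for the mitochondrial ribosomal proteins. The number of intervals below no change ranged from 3 to 5, from 11 to 16 and from 33 to 47 in these lists.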
